A study of Homo sapiens with 156 samples.

Results

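The subunits of oxidative phosphorylation are the 105 genes, of 59939 in each expression table, whose proteins form the respiratory chain and the ATP synthase. They were chosen by symbol and not by any measured value: protein-coding genes whose symbols start with NDUFA, NDUFB, NDUFC, NDUFS, NDUFV, UQCR, COX4, COX5, COX6, COX7, COX8 or ATP5, without the NDUFAF assembly factors, together with SDHA, SDHB, SDHC, SDHD, CYC1 and the 13 coding genes of the mitochondrial genome. Of these, 92 lie in the nuclear genome (38 of complex I, 4 of complex II, 10 of complex III, 19 of complex IV and 21 of complex V) and 13 are MT- genes (7 of complex I, 1 of complex III, 3 of complex IV and 2 of complex V). RNA was sequenced in 156 libraries from 3 human acute myeloid leukemia lines, MV411, THP1 and NOMO1, with 52 libraries and 26 groups of 2 libraries per line. GSK032 (GSK3685032) and decitabine (DAC) each had a time course, sampled after 1, 2, 4 and 6 days of 400 nM, and a titration read on day 4, with doses of 3.2, 16, 80, 400, 2000 and 10000 nM. GSK862 (GSK3484862) was given at 1000 nM and GSK477 (GSK3510477) at 10000 nM, each for 2 and 4 days, and the solvent DMSO was sampled on days 1, 2, 4 and 6. All cells were plated a day before treatment, all 3 lines carry a rearranged KMT2A gene, and each is a single established line grown in culture.

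GSK032 is a non-nucleoside inhibitor of DNMT1, which keeps CG pairs methylated when DNA is replicated, and DAC is a cytosine analog that is built into DNA and traps DNMT1 there, so both lower DNA methylation as cells divide. In oxidative phosphorylation, complexes I and II pass electrons from NADH and succinate to ubiquinone, complex III passes them to cytochrome c and complex IV passes them to oxygen. Complexes I, III and IV pump protons, and complex V, the ATP synthase, makes ATP as the protons flow back. All complexes but complex II join proteins made from nuclear mRNAs with proteins made inside the mitochondrion from MT- mRNAs, which are cut from long transcripts of a circular genome. Several complex IV subunits have paralogs used in muscle, lung or testis in place of the widely expressed form, and acute myeloid leukemia cells are known for a strong reliance on mitochondrial respiration.

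The promoters of the subunits differ in their CG pairs and in the motifs they hold, and 6 are shown first. RefSeq promoters of GRCh38.p14, 250 bases before to 50 bases after the start, were found for 71 of the 92 nuclear genes by symbol. COX7B2 (chr4:46909196-46909495, minus strand), COX8C (chr14:93346932-93347231, plus strand) and COX6B2 (chr19:55354670-55354969, minus strand), testis-type or little-expressed paralogs of complex IV subunits, are shown because their mRNAs were near 0 in DMSO and rose with treatment, and their CG pairs, the site that DNMT1 methylates, are in capitals.
COX7B2: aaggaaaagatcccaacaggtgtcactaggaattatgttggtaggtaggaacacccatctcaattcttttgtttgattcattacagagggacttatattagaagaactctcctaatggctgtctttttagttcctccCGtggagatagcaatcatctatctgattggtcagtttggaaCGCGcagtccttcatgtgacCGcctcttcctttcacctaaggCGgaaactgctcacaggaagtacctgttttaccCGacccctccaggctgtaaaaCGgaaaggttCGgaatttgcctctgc
COX8C: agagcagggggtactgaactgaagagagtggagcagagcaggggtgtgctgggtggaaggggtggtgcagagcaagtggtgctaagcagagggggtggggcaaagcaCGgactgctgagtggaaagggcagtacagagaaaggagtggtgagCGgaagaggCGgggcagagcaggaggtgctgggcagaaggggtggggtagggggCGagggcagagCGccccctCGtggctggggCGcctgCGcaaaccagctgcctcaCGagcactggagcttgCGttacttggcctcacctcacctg
COX6B2: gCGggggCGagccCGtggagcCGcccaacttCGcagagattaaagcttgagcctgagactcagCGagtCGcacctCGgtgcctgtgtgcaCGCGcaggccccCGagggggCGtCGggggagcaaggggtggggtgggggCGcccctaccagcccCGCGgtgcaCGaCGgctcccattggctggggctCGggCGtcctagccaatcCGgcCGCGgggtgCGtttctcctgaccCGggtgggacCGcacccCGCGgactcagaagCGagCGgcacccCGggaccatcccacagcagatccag
COX8A (chr11:63974370-63974669, plus strand), the widely expressed form that COX8C resembles, UQCRQ (chr5:132866392-132866691, plus strand), a small complex III subunit, and SDHB (chr1:17053983-17054282, minus strand), the iron-sulfur subunit of complex II, are shown because they were strongly expressed and fell in at least 1 line, and their motif matches are in capitals.
COX8A: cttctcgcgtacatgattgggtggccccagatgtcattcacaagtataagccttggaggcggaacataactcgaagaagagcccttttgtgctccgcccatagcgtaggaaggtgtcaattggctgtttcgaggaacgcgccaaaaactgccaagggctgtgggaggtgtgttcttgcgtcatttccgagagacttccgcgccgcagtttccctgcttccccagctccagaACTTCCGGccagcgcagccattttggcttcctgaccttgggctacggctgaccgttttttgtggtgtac
UQCRQ: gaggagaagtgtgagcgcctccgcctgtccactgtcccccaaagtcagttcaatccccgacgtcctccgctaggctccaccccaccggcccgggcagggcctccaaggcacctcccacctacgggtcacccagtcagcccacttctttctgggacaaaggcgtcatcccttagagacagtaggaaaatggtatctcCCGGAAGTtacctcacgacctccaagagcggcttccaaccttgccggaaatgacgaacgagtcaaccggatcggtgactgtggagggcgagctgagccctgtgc
SDHB: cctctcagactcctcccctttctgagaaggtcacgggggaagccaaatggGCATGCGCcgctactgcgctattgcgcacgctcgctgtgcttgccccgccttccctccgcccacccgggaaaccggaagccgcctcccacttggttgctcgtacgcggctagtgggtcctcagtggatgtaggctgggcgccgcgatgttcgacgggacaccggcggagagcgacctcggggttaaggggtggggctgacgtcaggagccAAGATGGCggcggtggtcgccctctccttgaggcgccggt
The motifs searched on both strands were GCGCATGC for NRF1, CCGGAAGT for GABPA and other ETS factors, and AAGATGGC for YY1, which cannot overlap in full. COX8A and UQCRQ hold 1 ETS match each, and SDHB holds 1 NRF1 match and 1 YY1 match. The NRF1 letters stand in 13 of the 71 promoters of subunits (18.3%) and in 3.27% of all 27305 promoters of that length. The ETS letters stand in 10 (14.1%, against 4.44% of all) and the YY1 letters in 11 (15.5%, against 3.03%). The promoters of subunits hold a median of 23 CG pairs against 14 in all promoters, and COX7B2 holds 8, COX8C 10 and COX6B2 31. A match is a run of letters and not a shown binding site, DNA methylation was not measured in these libraries, and no relation between promoter and response was tested.

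Values are FPKM, fragments per kilobase of transcript scaled to library size, as the authors deposited them, so levels can be compared between genes per length. The FPKM sums of libraries of 1 line differed, and protein-coding genes held 12.8 to 39.0%, 20.0 to 42.3% and 27.5 to 49.8% of those sums in MV411, THP1 and NOMO1, since short noncoding RNAs held most of the rest. The number of reads behind each value is unknown, so no counting interval is given and differences are set against the spread of the 2 libraries of a group. Nothing in the labels says that these were separate cultures, so that p-values measure the spread between libraries, which may be technical. The defining myeloid markers were present: 13, 12 and 13 of 13 stood at 1 FPKM or more in DMSO in MV411, THP1 and NOMO1. ALAS2, an erythroid gene, was listed at 0 in all DMSO libraries of the 3 lines, but markers of other cell types were present. Epithelial markers at a mean of 1 FPKM or more in DMSO were 2, 1 and 3 of 4, and endothelial markers 1 of 3 in each line. The endothelial markers summed to 21.4 to 41.8, 70.2 to 108 and 149 to 187 FPKM. T cell markers at that level were 1, 0 and 1 of 5, B cell markers 0, 2 and 1 of 4 and fibroblast markers 0, 0 and 1 of 5. Results below are log2 differences of FPKM + 0.5 from 1 limma fit per line, with Benjamini-Hochberg adjustment over all tested genes (MV411 22007, THP1 23226, NOMO1 20763), and "rose" and "fell" mean an adjusted p below 0.05.

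In DMSO the nuclear subunits were abundant and even, and most had a median of at least 10 FPKM over the 8 DMSO libraries of a line (82 of 92 in MV411, and 80 and 82 in THP1 and NOMO1). Their median level was 163 FPKM in MV411, 138 in THP1 and 174 in NOMO1. The most abundant was ATP5MF, a small membrane subunit of the ATP synthase, in MV411 (846 FPKM) and NOMO1 (1340), and COX7A2, a small complex IV subunit, in THP1 (1070). The members with the highest mean level in each complex were NDUFB9 for complex I (medians of 345, 255 and 485 FPKM in MV411, THP1 and NOMO1), SDHD, a membrane anchor of complex II (131, 102 and 153), UQCRH, the hinge protein of complex III (572, 953 and 741), COX8A for complex IV (786, 619 and 884) and ATP5MF for complex V (818 in THP1). Few members were silent. COX6A2, the muscle form of COX6A1, and COX4I2, the lung form of COX4I1, were listed at 0 in all 8 DMSO libraries of every line, and COX7A1, the muscle form of COX7A2, at 0 to 0.0696 FPKM. Of the 92 nuclear members, 87 in MV411, 89 in THP1 and 87 in NOMO1 reached 1 FPKM in 2 libraries and were tested. UQCRHL, COX6A2 and COX4I2 were left out in all lines, COX7A1 and ATP5MGL in MV411, and NDUFC2-KCTD14 and ATP5MGL in NOMO1. COX7B2, COX8C, COX6B2 and COX7A1 passed this filter only through treated libraries, so their differing was partly fixed by it. UQCRHL, a near copy of UQCRH, and the read-through genes NDUFC2-KCTD14 and ATP5MF-PTCD1 share reads with their neighbours and are uncertain.

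The 13 MT- mRNAs differed far more among themselves and between replicate libraries. MT-CO3, MT-CO1 and MT-CO2, the core subunits of complex IV, and MT-ND3 of complex I were the top 4 of 13 in each line. In MV411 their median DMSO levels were 1650, 986, 772 and 457 FPKM, in THP1 896, 716, 600 and 560, and in NOMO1 869, 540, 464 and 479. MT-ND6, the only subunit made from the other strand of the mitochondrial genome, stood at 16.3, 8.24 and 17.0 FPKM, and MT-ND5 at 26.0, 20.4 and 8.36. The mRNAs share polycistronic precursors, yet MT-CO3 made up 30.5 to 41.3% of the 13 summed and MT-ND6 0.211 to 0.88% over the MV411 DMSO libraries. The median SD between the 2 libraries of a group was 0.70 log2 units for MT- mRNAs in MV411, 0.56 in THP1 and 0.37 in NOMO1, against 0.18, 0.10 and 0.13 for nuclear subunits and 0.19, 0.17 and 0.16 for all genes tested. On day 1 in MV411, the DMSO libraries held 3090 and 596 FPKM of MT-CO3.

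**Figure D1:**
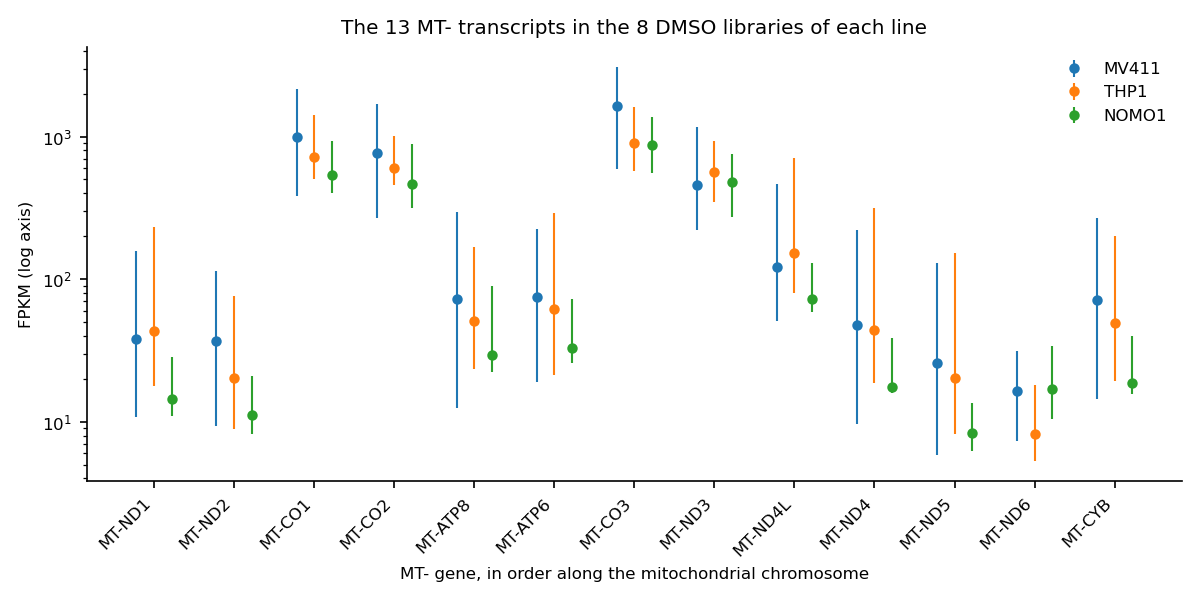
FPKM on a log axis of the 13 mitochondrially encoded mRNAs over the 8 DMSO libraries of each line, with points at the median and bars from the lowest to the highest library. MT-CO3 stands highest in all 3 lines, at 1650, 896 and 869 FPKM, and MT-ND6 near the bottom at 16.3, 8.24 and 17.0.

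After 4 days at 400 nM the nuclear subunits fell broadly and by moderate amounts in MV411 and THP1 with both compounds, and in NOMO1 with DAC. In MV411, 48 of 87 fell and 3 rose with GSK032, where 17.3% of all genes tested fell and 15.9% rose, and the median change was -0.47 on the log2 scale against 0 for all genes. With DAC 46 fell and 2 rose (19% and 16.8% of all genes), with a median of -0.49. In THP1, 52 of 89 fell and 3 rose with GSK032 (13.8% and 9.21% of all genes; median -0.32), and 50 fell and 3 rose with DAC (19.4% and 19.1%; median -0.28). NOMO1 differed between the compounds: 6 of 87 fell and 2 rose with GSK032 (8.29% and 10.2% of all genes; median -0.08), and 68 fell and 3 rose with DAC (26.2% and 26.1%; median -0.65). The share of members that fell with GSK032 in NOMO1 was near that of all genes. Few falls reached 1 log2 unit: 3, 0 and 0 members with GSK032 in MV411, THP1 and NOMO1, and 2, 1 and 14 with DAC (2.76%, 0.336% and 0.376% of all genes with GSK032, and 3.34%, 1.93% and 5.94% with DAC). The counts leaned on single libraries: in MV411 the 48 became 21 without the second GSK032 library and 17 without the first DMSO library, and the 46 with DAC became 22 without that DMSO library and 25 without the second DAC library. The 50 of THP1 with DAC became 30 without its second DAC library, and the 6 of NOMO1 with GSK032 became 2 to 5 when 1 library was left out. Both compounds were set against the same 2 DMSO libraries of each line. In bulk RNA, less RNA per cell and fewer cells that hold it cannot be told apart.

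**Figure D2:**
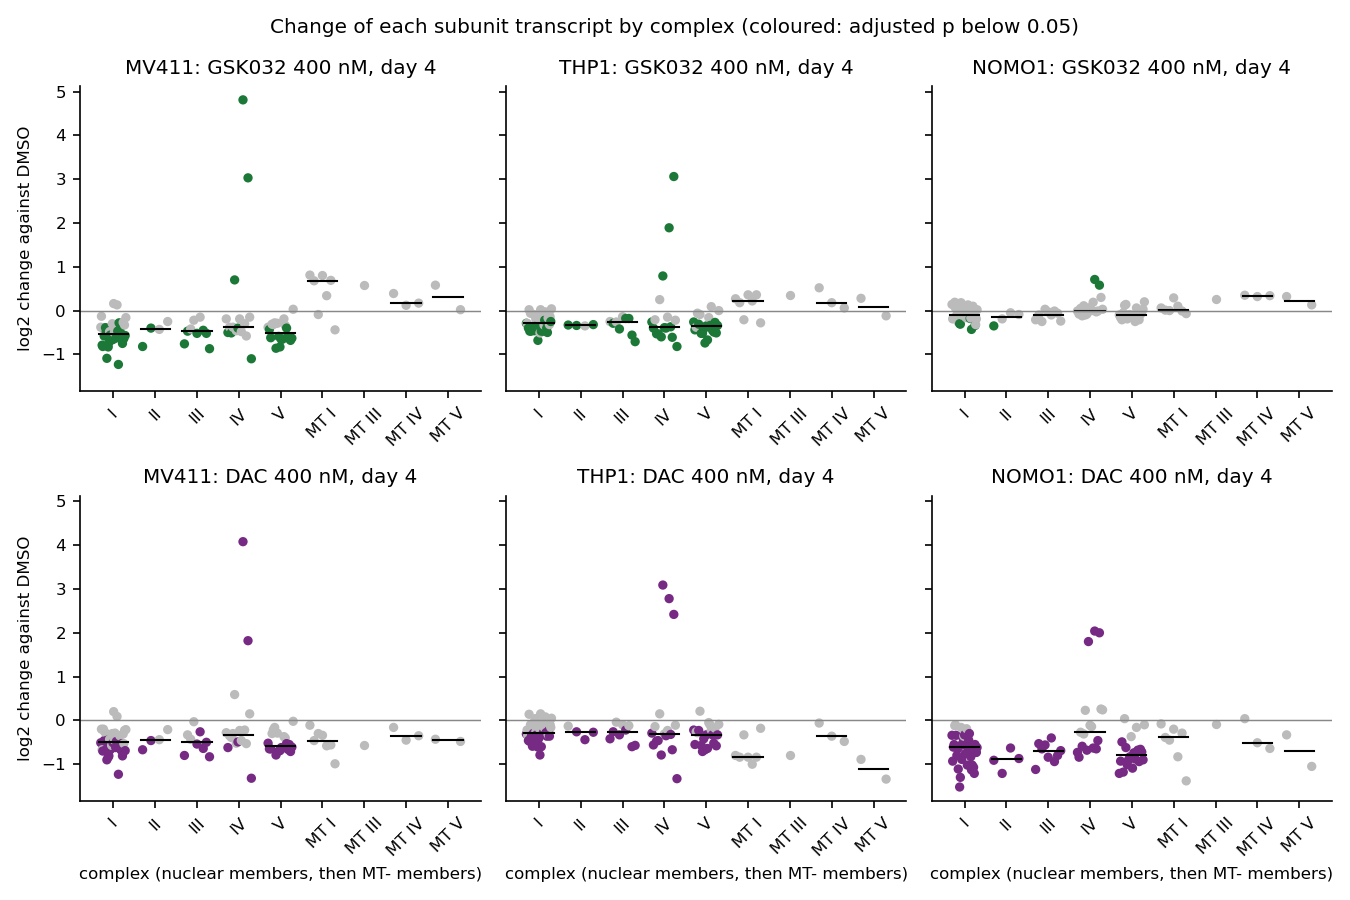
Log2 change of FPKM + 0.5 against DMSO after 4 days at 400 nM for each subunit, GSK032 in the upper and DAC in the lower panels, by line and by complex, nuclear members first and MT- members after; coloured points have an adjusted p below 0.05 and black bars are medians. Most nuclear points lie below 0 in MV411 and THP1 and, with DAC only, in NOMO1 (median -0.65), a few complex IV paralogs stand far above 0, and no MT- point is coloured.

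Complex I, the NADH dehydrogenase, fell in 24 of 38 members in MV411 with GSK032 (median -0.52) and in 22 with DAC, in 18 and 19 of 38 in THP1, and in 5 and 32 of 37 in NOMO1. Of all genes tested, 17.3% and 19% fell in MV411 with GSK032 and DAC, 13.8% and 19.4% in THP1, and 8.29% and 26.2% in NOMO1. The counts of each complex below stand beside these shares. NDUFAB1, the mitochondrial acyl carrier protein that is also a complex I subunit, fell in all 3 lines with both compounds. In NOMO1 its DMSO libraries held 202 and 214 FPKM, GSK032 170 and 165, and DAC 76.2 and 92.4. The DAC libraries lay far below the others, at -1.30 ± 0.10 (SE; adjusted p = 6.31e-12), and the GSK032 libraries below DMSO by -0.31 ± 0.10 (adjusted p = 0.0312). In MV411 NDUFAB1 went from 147 and 136 FPKM to 86.7 and 82.8 with GSK032 and 86.5 and 74.7 with DAC. In THP1 it went from 116 and 113 to 84.4 and 81.9, and 83.6 and 77.9, so that treated and DMSO libraries did not overlap in any line. NDUFS1 and NDUFS3, core subunits of the electron-carrying arm, fell with GSK032 in all 3 lines, by small amounts: NDUFS1 by -0.28, -0.22 and -0.18 in MV411, THP1 and NOMO1, and NDUFS3 by -0.61, -0.21 and -0.43. NDUFS1 turned to 0.07 in MV411 and 0.07 in THP1, and NDUFS3 to 0.08 in THP1, when libraries were rescaled to equal sums over nuclear coding genes. NDUFA9, which stabilises the junction of the arms of complex I, had the largest fall in NOMO1 with DAC, from 125 and 136 FPKM to 46.3 and 43.8 (-1.52 ± 0.09, adjusted p = 8.1e-15). In THP1 it stood at 27.5 and 25.5 FPKM in DMSO and 26.8 and 24.3 with DAC, with no call (-0.05, adjusted p = 0.74). NDUFA7 had the largest fall with GSK032 in MV411 among members above 10 FPKM in DMSO, from 86.9 and 68.9 FPKM to 36.4 and 35.6 with GSK032 (-1.09 ± 0.19, adjusted p = 2.73e-05).

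Complex II, the succinate dehydrogenase, is the complex with no mitochondrially encoded part, and 2 of 4 members fell in MV411 and 3 of 4 in THP1 with each compound, against 1 of 4 with GSK032 and 4 of 4 with DAC in NOMO1. SDHA, the flavoprotein that holds the active site, fell with GSK032 in all 3 lines. In MV411 its DMSO libraries held 100.0 and 91.6 FPKM and the GSK032 libraries 52.9 and 55.6. In THP1 these were 46.5 and 45.7 against 38.6 and 34.5, and in NOMO1 147 and 159 against 118 and 122, with no overlap. The changes were -0.82 ± 0.11 (adjusted p = 8.7e-07), -0.33 ± 0.09 (0.00469) and -0.35 ± 0.06 (0.000157). With DAC, SDHA stood at 61.0 and 58.8 FPKM in MV411 and 78.5 and 84.0 in NOMO1, both lower than DMSO, and at 43.6 and 40.8 in THP1, a difference that did not pass the test (-0.13, adjusted p = 0.265). SDHB, whose promoter is shown above, went in NOMO1 from 128 and 131 FPKM to 116 and 111 with GSK032 (adjusted p = 0.0575) and to 55.9 and 55.6 with DAC (-1.21 ± 0.07, adjusted p = 1.15e-14).

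Complex III fell in 6 of 9 tested members in MV411 and 6 of 9 in THP1 with each compound, and in 0 of 9 with GSK032 and 9 of 9 with DAC in NOMO1. UQCRQ, with an ETS match in its promoter, stood at 364 and 304 FPKM in MV411 with DMSO, 187 and 176 with GSK032 and 193 and 180 with DAC. In THP1 it stood at 310 and 297, 186 and 184, and 215 and 193, and in NOMO1 at 323 and 308, 285 and 251, and 191 and 200. All treated libraries of UQCRQ lay below the DMSO libraries of the same line, and the change with GSK032 in NOMO1 did not pass the test (-0.24, adjusted p = 0.503). UQCRH fell by -0.52 and -0.50 in MV411, by -0.56 and -0.60 in THP1, and with DAC by -0.80 in NOMO1, where the GSK032 value was -0.06 (adjusted p = 0.876).

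Complex IV, the cytochrome c oxidase, held the members that moved in opposite directions. With GSK032, 4 of 16 fell and 3 rose in MV411, 10 of 17 fell and 3 rose in THP1, and 0 of 17 fell and 2 rose in NOMO1. With DAC, 3 fell and 2 rose in MV411, 9 fell and 3 rose in THP1, and 7 fell and 3 rose in NOMO1. In MV411 the share that fell with DAC was near that of all genes (19%). So were the shares that rose there (15.9% and 16.8% of all genes with GSK032 and DAC). COX5A, a nuclear subunit present in all tissues, fell in all 3 lines with DAC, by -0.62 ± 0.15, -0.56 ± 0.07 and -0.84 ± 0.10. In NOMO1 the COX5A libraries read 295 and 315 FPKM in DMSO, 284 and 292 with GSK032 and 154 and 187 with DAC, so that only the DAC libraries stood well apart. COX8A read 469 and 487 FPKM in THP1 with DMSO, 296 and 328 with GSK032 and 307 and 294 with DAC. In MV411 the COX8A libraries read 708 and 557, 459 and 385, and 478 and 395, and the wide gap between replicates left both changes without a call (-0.58 and -0.53, adjusted p = 0.0709 and 0.0951). Of the other widely expressed paralogs, COX4I1 fell in THP1 with both compounds and in NOMO1 with DAC, COX6A1 in MV411 with GSK032, in THP1 with both and in NOMO1 with DAC, COX6B1 in THP1 with both, COX7A2 in MV411 with both and in THP1 with GSK032, COX7A2L in THP1 with both and COX7B in NOMO1 with DAC. NDUFA4, now counted as a complex IV subunit, did not pass the test in any line at 400 nM on day 4. NDUFA4L2, its hypoxia-linked paralog, fell in MV411 from 4.26 and 4.59 FPKM to 2.13 and 1.52 with GSK032 and 1.1 and 1.92 with DAC, and in THP1 from 3.11 and 2.93 to 1.8 and 1.23, and 0.88 and 0.913.

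Complex V, the ATP synthase, fell in 12 of 20 members with GSK032 and 13 with DAC in MV411, in 15 and 13 of 21 in THP1, and in 0 and 16 of 20 in NOMO1. ATP5MF, the most abundant member, read 743 and 650 FPKM in MV411 with DMSO, 442 and 443 with GSK032 and 440 and 464 with DAC. In THP1 it read 674 and 580, 403 and 382, and 426 and 377, and in NOMO1 1350 and 1230, 1260 and 1140, and 744 and 806. The treated libraries of ATP5MF lay clear of DMSO except in NOMO1 with GSK032, where they overlapped (-0.10, adjusted p = 0.667). ATP5F1B, the catalytic beta subunit, fell with DAC by -0.65 ± 0.12, -0.55 ± 0.07 and -0.93 ± 0.18 in MV411, THP1 and NOMO1. ATP5PF, ATP5MC1, a part of the proton-carrying ring, NDUFB8 and NDUFA7 of complex I also fell with DAC in all 3 lines, by at least 0.57 log2 units in each line. ATP5IF1, an inhibitor of the synthase, fell only in NOMO1 with DAC (-0.62 ± 0.20, adjusted p = 0.0094) and read 182 and 159 FPKM in THP1 with DAC against 154 and 140 in DMSO (adjusted p = 0.102).

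Across lines, 86 nuclear members were tested in all 3. SDHA, NDUFAB1, NDUFS1 and NDUFS3, 4 of these, fell in every line with GSK032 at 400 nM, where 4.15% of the 17787 genes tested in all lines did so. With DAC 30 fell in every line (11.5% of the genes), with 2000 nM 59 (15.6%) and with 10000 nM 67 (18.3%). With GSK032, 22 fell in every line at 2000 nM (9.24%) and 46 at 10000 nM (12.9%). COX7B2 and COX8C were the members that rose in every line with either compound at 400 nM (2.52% of genes with GSK032 and 7.43% with DAC). These 2 of 86 were near the share of all genes with GSK032 and below it with DAC.

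The falls were compared with the other protein-coding genes at 10 FPKM or more in DMSO, 7437 in MV411, 7482 in THP1 and 7290 in NOMO1, since abundant genes in general were lower. In MV411, 39.5% of these genes fell with GSK032 (median -0.25) against 46 of 82 subunits of that level (median -0.47), and 44.4% fell with DAC (median -0.28) against 44 of 82 (median -0.49). In THP1, 34.8% (median -0.17) stood against 51 of 80 (median -0.34) with GSK032, and 41.0% (median -0.17) against 49 of 80 (median -0.31) with DAC. In NOMO1, 17.0% (median -0.07) stood against 6 of 82 (median -0.09) with GSK032, and 52.2% (median -0.29) against 68 of 82 (median -0.65) with DAC.

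The size of the falls depended on the scale on which libraries were set. The share of FPKM on coding genes in MV411 went from 35.3% in DMSO on day 4 to 13.6% with DAC at 10000 nM, in THP1 from 37.4% to 22.9% and in NOMO1 from 41.0% to 28.4%, and the share on nuclear subunits went with it, from 0.905 to 0.259%, 0.914 to 0.526% and 1.27 to 0.738%. With every library set to an equal FPKM sum, the GSK032 medians became -0.17, -0.37 and 0.01 in MV411, THP1 and NOMO1, with 17, 36 and 0 members lower, and the DAC medians became -0.57, -0.64 and -0.54, with 64, 74 and 56 lower. With equal sums over nuclear coding genes, a setting chosen after the data were seen, the GSK032 medians were -0.11, -0.03 and -0.09 and the DAC medians -0.10, -0.01 and -0.27. The members then split into 7 higher and 27 lower in MV411 with GSK032 (THP1 9 and 17, NOMO1 2 and 10), and into 11 and 27, 16 and 20, and 10 and 42 with DAC. On that scale the median of all genes tested moved up by 0.19 to 0.30 log2 units except in NOMO1 with GSK032, and 25.5 to 40.8% of all genes rose in the other 5 comparisons while 3.87 to 12.6% fell. Each scale multiplies a library by 1 factor, which shifts nearly all log2 changes alike. The gap between the subunits and the median of all genes could therefore hardly differ between the 3 scales, and its likeness is no test. The gap was -0.47, -0.42 and -0.40 (deposited, equal sums, coding sums) in MV411 with GSK032 and -0.49, -0.51 and -0.38 with DAC. It was -0.32, -0.36 and -0.27, and -0.25, -0.30 and -0.20, in THP1, and -0.08, -0.05 and -0.09, and -0.65, -0.60 and -0.58, in NOMO1.

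The falls grew with dose on day 4. No nuclear subunit fell by limma's test at 3.2 or 16 nM in any line, where 0.0409% (MV411) and 0.00482% (NOMO1) or none (THP1) of all genes fell at 16 nM GSK032 and 1.21%, 0.921% and 1.97% at 16 nM DAC, and at 3.2 nM DAC 0.345%, 0.0431% and 0.0144%. None rose at these doses either (at 16 nM DAC, 4, 11 and 3 had an unadjusted p below 0.05 in MV411, THP1 and NOMO1, and at 3.2 nM 0, 1 and 12). Of all genes tested (22007, 23226 and 20763), 84, 312 and 1011 rose at 16 nM DAC and 3, 6 and 12 at 3.2 nM DAC. With GSK032 these were 3, 1 and 0 at 16 nM and 0, 1 and 2 at 3.2 nM. At 80 nM GSK032 lowered 12 in MV411 and 0 in THP1 and NOMO1 (8.62%, 0.0775% and 0.0241% of all genes fell), and DAC lowered 0, 4 and 40 (3.91%, 6.6% and 18%). NOMO1 with 80 nM DAC rested on libraries that stood apart, with mean log2 levels of the nuclear subunits 0.45 apart, and the 40 became 16 without the second DAC library, 62 without the first and 26 without the second DMSO library. At 2000 nM GSK032 lowered 65, 62 and 29 (21.9%, 19.1% and 16.1% of all genes) and DAC 80, 63 and 74 (26.6%, 23.8% and 27.2%). At 10000 nM GSK032 lowered 76, 67 and 54 (24.6%, 21.6% and 22.3%; medians -0.87, -0.50 and -0.46) and DAC 83, 69 and 77 (30.1%, 26.2% and 29%; medians -1.28, -0.49 and -0.79). At that dose 29, 7 and 1 members were lower by at least 1 log2 unit with GSK032 (7.68%, 2.75% and 3.21% of all genes), and 65, 1 and 27 with DAC (12.5%, 5.49% and 9.43%). On the scale of equal sums over nuclear coding genes the counts at 10000 nM were 54 lower and 9 higher for MV411, 24 and 14 for THP1 and 45 and 3 for NOMO1 with GSK032, and 56 and 9, 22 and 17, and 38 and 8 with DAC. Of all genes of MV411, 10.4% were lower and 43.1% higher on that scale with GSK032, and 9.18% and 54.6% with DAC. UQCRQ in MV411 read 187 and 176 FPKM at 400 nM GSK032, 174 and 135 at 2000 nM and 131 and 125 at 10000 nM, and 193 and 180, 142 and 113, and 119 and 74.2 with DAC. It stood lower at each higher dose in MV411, whereas in THP1 it read 215 and 193, 210 and 198, and 210 and 195 over the same DAC doses, with no further drop. The 2 libraries of MV411 at 10000 nM DAC were 0.61 log2 units apart in their nuclear mean, the widest such gap in that line. The slope was taken over the 6 doses, without DMSO. In it 78, 68 and 54 members had a downward trend with GSK032 (28.3%, 25.6% and 24.8% of all genes). With DAC these were 83, 76 and 80 (32.5%, 31.8% and 32.4%). The trends split, on that scale of coding genes, into 56 lower and 9 higher, 31 and 23, and 48 and 5 with GSK032, and 63 and 10, 35 and 18, and 50 and 7 with DAC. Of all genes of MV411, 12.6% trended lower and 48.7% higher there with GSK032, and 11.1% and 60.6% with DAC. The steepest over the dose range were NDUFA4L2 (-1.91) in MV411, UQCRQ (-1.17) in THP1 and NDUFA9 (-1.27) in NOMO1 with GSK032, and ATP5MC3 (-2.22), ATP5MC1 (-1.15) and ATP5F1D (-2.16) with DAC.

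**Figure D3:**
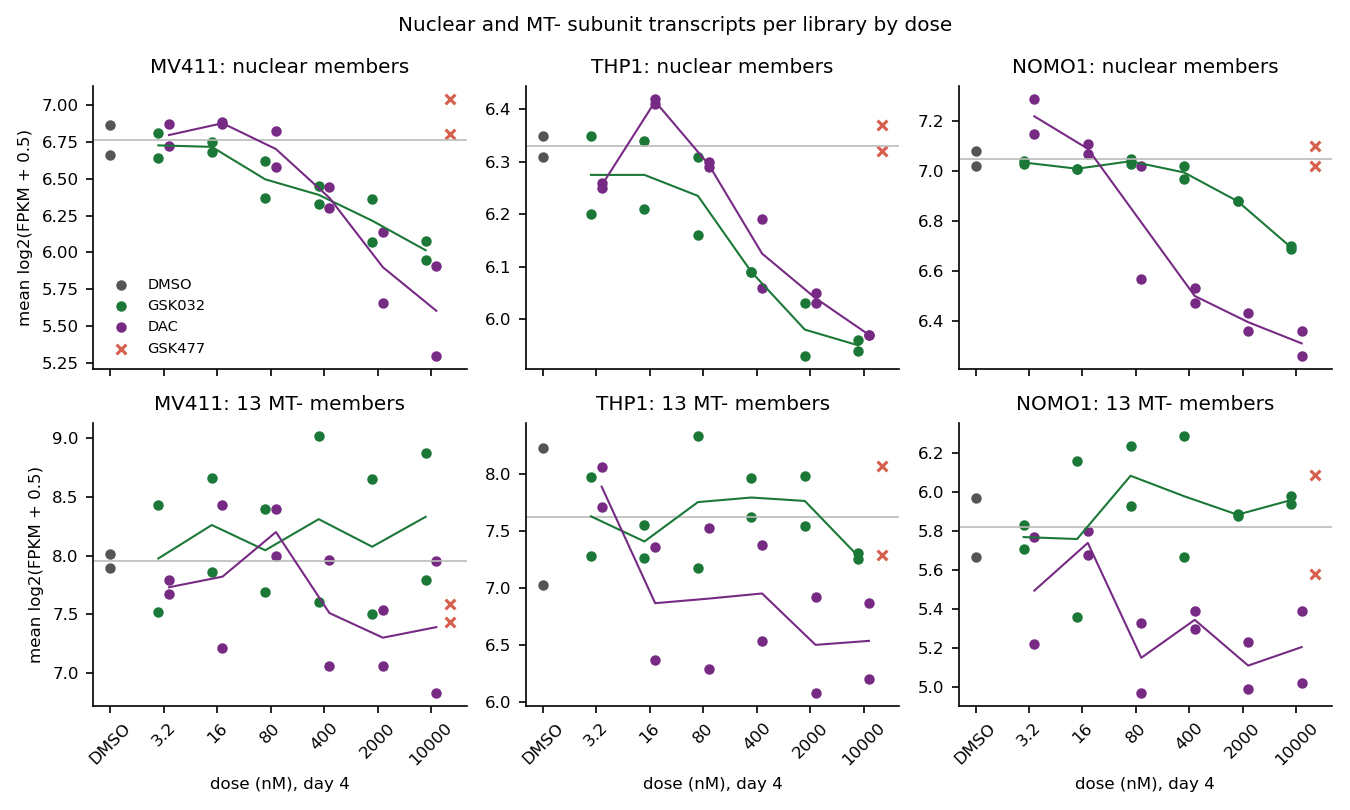
Mean log2(FPKM + 0.5) per library of the nuclear subunits (top) and of the 13 MT- mRNAs (bottom) against dose in nM on day 4, by line; points are libraries, lines join group means, the grey line is the DMSO mean and crosses are GSK477 at 10000 nM. The nuclear mean drops in MV411 from 80 nM upward with GSK032 and from 400 nM upward with DAC. In NOMO1 it drops from 80 nM upward with DAC. The MT- points of 1 group lie up to 1.23 log2 units apart in THP1.

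Over days at 400 nM few or no falls passed the test on day 1 and few on day 2. By day 4 they were broad except in NOMO1 with GSK032. On day 1 no nuclear subunit passed limma's test with GSK032 in any line (0, 1 and 0 at an unadjusted p below 0.05; 0.00454%, 0.00861% and 0.00963% of all genes fell), and 1, 0 and 1 fell with DAC (1.69%, 0.702% and 0.949% of all genes). A lack of calls was not a lack of change: in MV411 with DAC on day 1 the median was -0.24, beside -0.23 on day 2. On day 1 82 of 87 members lay below 0 there, and the DMSO libraries stood apart (nuclear means 7.11 and 7.43). On day 2, 1, 12 and 0 fell with GSK032 in MV411, THP1 and NOMO1 (2.48%, 4.12% and 0.424% of all genes) and 2, 12 and 17 with DAC (6.96%, 6.26% and 10.3%). On day 6 the lines parted. In MV411, 15 fell with GSK032 and 23 with DAC (16.7% in each; medians -0.15 and -0.19), near the share of all genes with GSK032, and the 23 became 10 to 18 when 1 library was left out, 10 without the second DAC library and 13 without the first DMSO library. In THP1, 53 and 79 fell (17.3% and 23.1%; medians -0.36 and -0.72), and in NOMO1 13 and 79 (14% and 28.9%; medians -0.14 and -0.94). The 13 became 6 without the second GSK032 library and 6 without the second DMSO library. The 15 of MV411 with GSK032 became 10 without the second GSK032 or the first DMSO library. Of the other coding genes at 10 FPKM or more in DMSO, 33.8% and 36.2% fell in MV411 with GSK032 and DAC on day 6, more than the 14 and 21 of 82 subunits of that level. In NOMO1 with GSK032 26.3% fell against 13 of 82, and with DAC 57.4% against 79 of 82, while THP1 had 40.6% against 52 of 80 and 53.9% against 77 of 80. The median in MV411 on day 6 turned in sign with equal sums over nuclear coding genes. It was 0.03 with GSK032 (15 higher and 16 lower) and 0.13 with DAC (28 higher and 12 lower). All genes moved up there too: 22.3% were higher and 10.9% lower with GSK032, and 27.9% and 7.73% with DAC. Their medians were 0.11 and 0.21, and the subunits differed from these by -0.07 and -0.08. On that scale THP1 had 13 higher and 12 lower with GSK032 and 10 and 38 with DAC, and NOMO1 2 and 21, and 7 and 49. NDUFA9 in NOMO1 with DAC was lowest on day 6, at -2.0 ± 0.09 (adjusted p = 1.02e-17). In MV411 on day 6 a pair of complex I members rose, NDUFC1 from 51.1 and 50.9 FPKM to 95.5 and 104 with GSK032 and 79.6 and 84.4 with DAC, and NDUFB5 from 86.6 and 78.4 to 118 and 110, and 117 and 107. These were named after their values were seen, and neither rose on day 4 in any line. The change against DMSO on day 6 minus that on day 1 passed for 12, 33 and 5 members with GSK032 in MV411, THP1 and NOMO1 (higher in 13.2%, 6.37% and 8.52% of all genes and lower in 10.2%, 9.57% and 6.12%) and for 4, 69 and 75 with DAC (11.2%, 13.4% and 21.2%, and 7.7%, 14.8% and 22.6%). DMSO itself moved between days: from day 1 to day 6, 21 nuclear members fell and 1 rose in MV411 (6.97% and 6.16% of all genes), 11 rose and 0 fell in THP1 (2.84% and 0.99%) and none passed in NOMO1 (0.925% of all genes fell and 2.63% rose). SDHC fell by -0.75 ± 0.18 in MV411, and ATP5MD rose by 0.51 ± 0.10 in THP1. In every line the mean log2 level of the nuclear subunits in DMSO was lowest on day 4. On days 1, 2, 4 and 6 it was 6.68, 6.71, 6.33 and 6.88 in THP1 and 7.27, 7.17, 6.76 and 6.92 in MV411. In NOMO1 the days hardly differed (7.12, 7.2, 7.05 and 7.06). Each comparison with a compound was therefore made within a day.

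**Figure D4:**
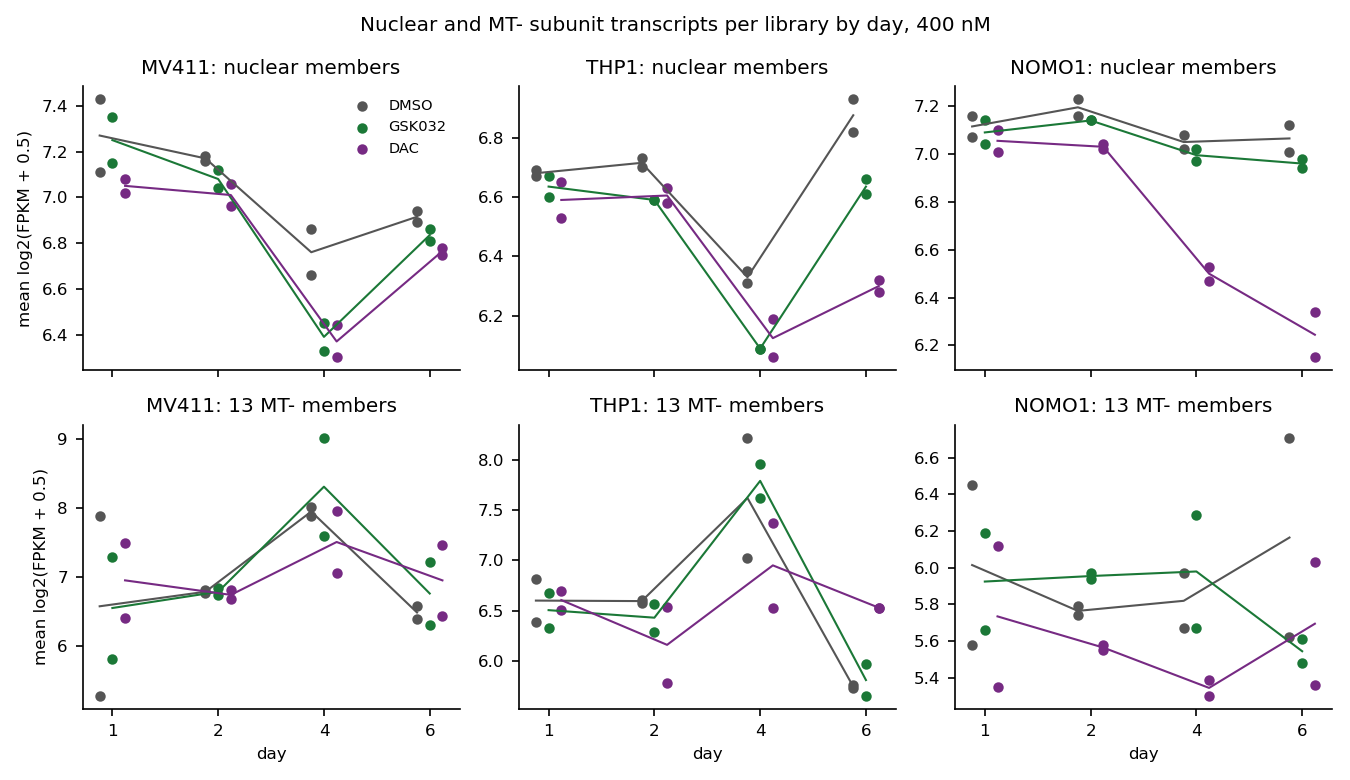
Mean log2(FPKM + 0.5) per library of the nuclear subunits (top) and of the MT- mRNAs (bottom) by day at 400 nM GSK032 or DAC and in DMSO, by line; points are libraries and lines join group means. The nuclear means separate from DMSO by day 4 in MV411 and THP1 and stay apart on day 6 in THP1 and, with DAC, in NOMO1, while the MT- means of DMSO differ by day (6.60, 6.60, 7.62 and 5.75 in THP1).

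Against this background 4 complex IV paralogs with little or no expression in DMSO rose, and they differed by line and compound. As given above, they passed the filter only through treated libraries, so their rises and p-values against DMSO were partly fixed by it. COX7B2, a paralog of COX7B, lay at 0 to 0.151 FPKM in the 8 DMSO libraries of MV411. With GSK032 on day 4 it read 2.01 and 1.75 FPKM at 80 nM, 16.9 and 14.3 at 400 nM, 26.7 and 21.3 at 2000 nM and 19.9 and 19.2 at 10000 nM. With DAC it read 0.834 and 1.33, 9.28 and 9.08, 8.41 and 4.76, and 1.43 and 1.48 at the same doses. Both compounds thus peaked below the top dose, DAC with a much larger drop, and the direct difference grew from 0.73 ± 0.19 at 400 nM (adjusted p = 0.0131) to 3.36 ± 0.19 at 10000 nM (95% interval 2.97 to 3.74). At 400 nM COX7B2 was listed at 0 in both MV411 libraries of day 1 with DAC, read 3.47 and 5.02 FPKM on day 2 with GSK032, and 29.8 and 37.5 on day 6. In THP1 it went from 0 in both DMSO libraries of day 4 to 1.61 and 1.14 with GSK032 and 3.75 and 2.28 with DAC at 400 nM, and to 4.64 and 5.26, and 3.47 and 4.41, at 10000 nM. In NOMO1 it was lowest, from 0.0604 and 0.0316 to 0.33 and 0.456 with GSK032 (0.71 ± 0.23, adjusted p = 0.0297) and 1.7 and 1.8 with DAC. Since DMSO libraries were at or near 0, levels are given in place of folds.

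COX8C, the testis paralog of COX8A, followed COX7B2 in rising in all 3 lines with both compounds. In MV411 it went from 0.136 and 0.0598 FPKM to 4.97 and 3.87 with GSK032 at 400 nM on day 4 and 1.81 and 1.42 with DAC, and the direct difference was 1.21 ± 0.21 (95% interval 0.78 to 1.65, adjusted p = 0.000329). In THP1, where DMSO libraries held 0.171 to 1.01 FPKM, it went to 7.36 and 5.57 and to 4.17 and 3.72, and on day 6 to 11.1 and 10.7, and 7.65 and 8.16. NOMO1 was again lowest with GSK032, at 0.50 and 0.0895 FPKM against 0.0298 and 0 in DMSO (0.58 ± 0.20, adjusted p = 0.0444), and DAC gave 1.55 and 1.57. The calls of COX7B2 and COX8C with GSK032 at 400 nM in NOMO1 were lost with no filter on low values and fell to 0 or 1 when 1 library was left out, and at 2000 nM both passed (COX7B2 at 2.88 and 3.10 FPKM, COX8C at 2.19 and 2.87). With 8 and 10 CG pairs, the promoters of COX7B2 and COX8C shown above hold fewer than the median of 14.

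COX7A1, the heart and skeletal muscle form of COX7A2, differed between the compounds in both lines where it was tested. In THP1 both DMSO libraries of day 4 were listed at 0, and 400 nM gave 0.546 and 0.218 FPKM with GSK032 and 3.62 and 3.89 with DAC, with a direct difference of -2.29 ± 0.17 (95% interval -2.64 to -1.95, adjusted p = 3.48e-11). At 10000 nM the order turned, with 4.06 and 4.16 FPKM with GSK032 and 1.74 and 1.70 with DAC (1.05 ± 0.17, adjusted p = 8.93e-06). In NOMO1 DAC gave 1.81 and 0.812 FPKM at 400 nM and 2.43 and 2.52 at 2000 nM, and GSK032 was listed at 0 at 400 nM and at 0 and 0.0575 at 2000 nM. In MV411, where COX7A1 was not tested, the highest library held 1.52 FPKM, with DAC on day 6. COX6B2, the testis paralog of COX6B1, rose with DAC at 2000 and 10000 nM in every line. In MV411 it read 2.65 and 1.46 FPKM at 10000 nM DAC and 0.176 and 0.179 at that dose of GSK032. THP1 had 1.98 and 2.12 against 0.236 and 0.27, and NOMO1 1.65 and 2.54 against 0.131 and 0.0949. The compounds differed by -1.88 ± 0.27, -1.76 ± 0.18 and -2.06 ± 0.15 log2 units. COX6B2 also passed with GSK032 at 400 nM in MV411, on 1 library (1.35 against 0.153 FPKM in the other), and the difference was -0.06 without it. The promoter of COX6B2, with 31 CG pairs, is unlike those of COX7B2 and COX8C in that count. On the FPKM scale, which is per length, COX7B2 in MV411 came near its widely expressed form: with GSK032 at 2000 nM on day 4 COX7B read 37.9 and 36.2 FPKM beside COX7B2 at 26.7 and 21.3, and at 400 nM on day 6 COX7B read 67.9 and 61.6 beside COX7B2 at 29.8 and 37.5.

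**Figure D5:**
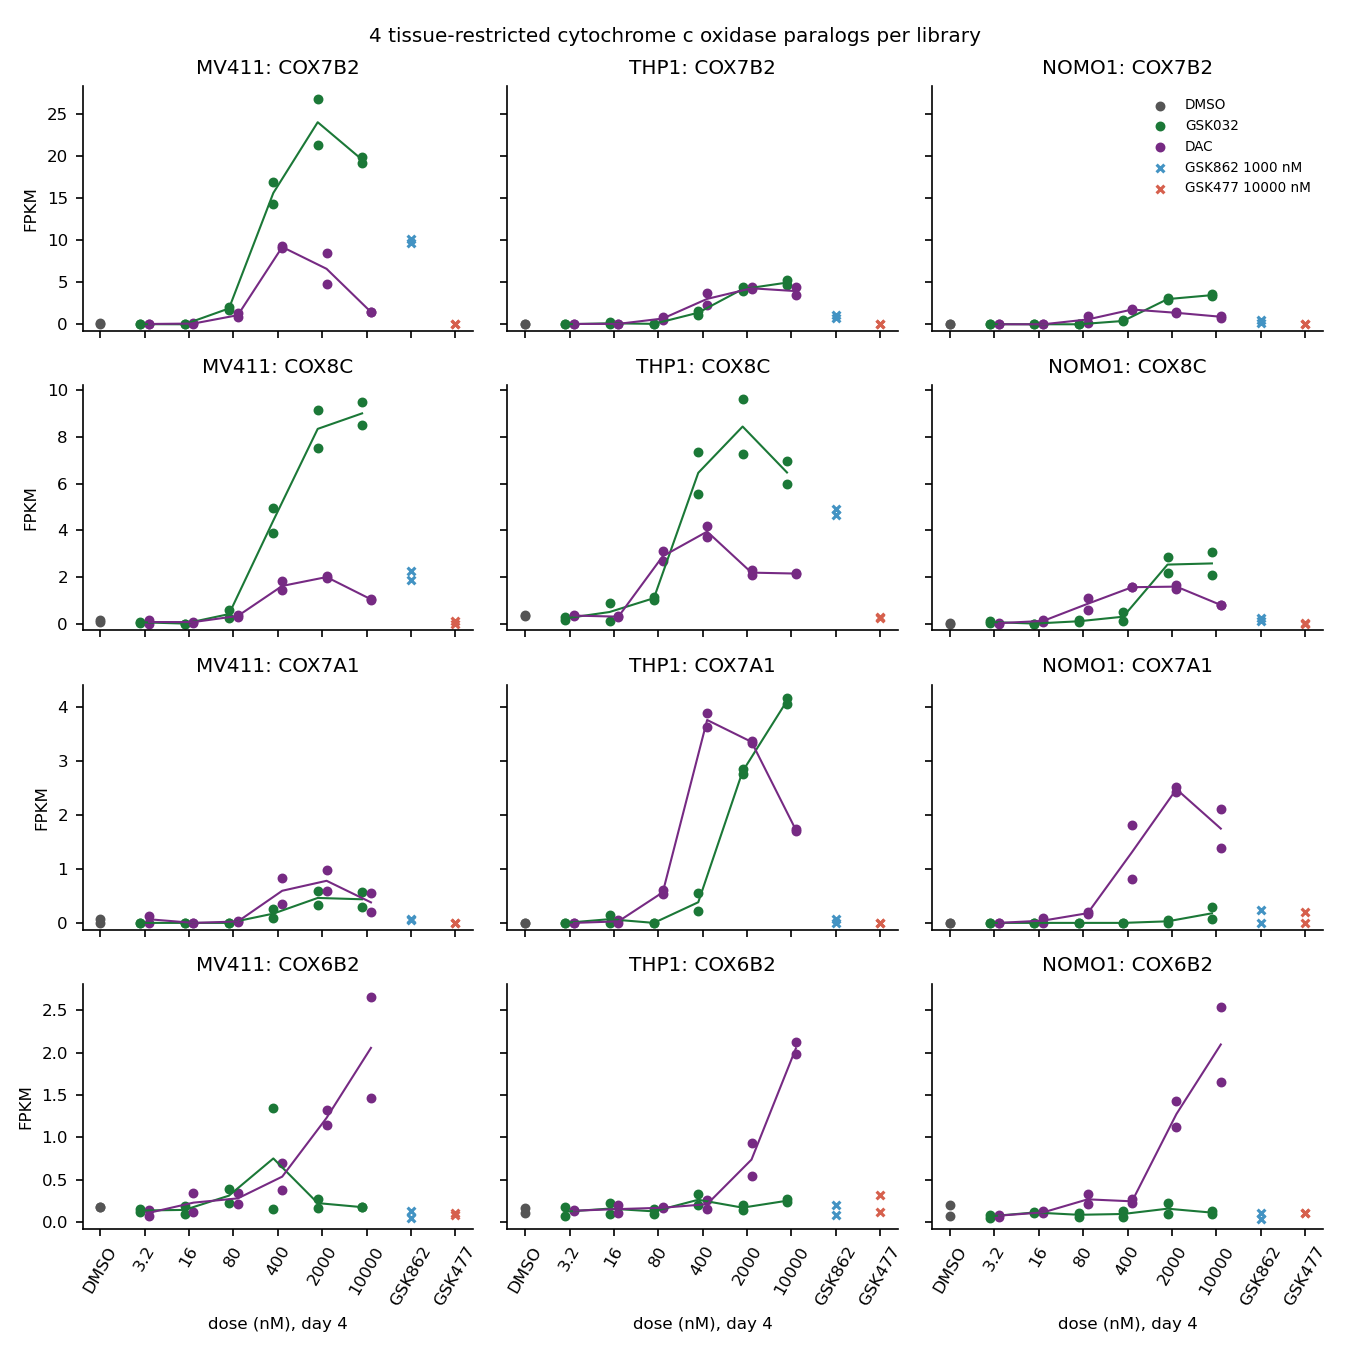
FPKM per library of COX7B2, COX8C, COX7A1 and COX6B2 against dose in nM on day 4 for GSK032 and DAC, with DMSO, GSK862 at 1000 nM and GSK477 at 10000 nM, by line; the axis is linear and shared within a gene. COX7B2 reaches 26.7 FPKM in MV411 with GSK032, COX7A1 rises with DAC and not with GSK032 in NOMO1, and COX6B2 rises only at the top DAC doses apart from 1 MV411 library at 400 nM GSK032.

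No MT- mRNA passed the test against DMSO on day 4 at 400 nM with either compound in any line (none at an unadjusted p below 0.05 either, except 2 in NOMO1 with DAC). The median MT- change was 0.39 and -0.45 in MV411 with GSK032 and DAC, 0.22 and -0.80 in THP1, and 0.13 and -0.39 in NOMO1. Libraries of a group lay far apart: MT-CO3 in MV411 read 2320 and 2210 FPKM with DMSO, 3300 and 1980 with GSK032 and 2200 and 1440 with DAC. The GSK032 libraries spanned those of DMSO, and both DAC libraries lay below them. MT-ND1 in THP1 read 93.4 and 233, 172 and 185, and 61.8 and 115, and both treated groups overlapped DMSO. The 95% interval of the MT-CO3 change with GSK032 was -0.83 to 1.18 for MV411, -0.45 to 0.56 for THP1 and -0.41 to 1.08 for NOMO1, and each interval holds the median of the nuclear subunits in the same comparison. A fall of the nuclear size in MT-CO3 was thus not detectable at this spread.

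At higher doses and later days some MT- mRNAs passed with DAC. MT-ND6 fell in MV411 at 10000 nM from 31.2 and 17.4 FPKM to 5.48 and 3.66 (-2.26 ± 0.84, adjusted p = 0.0256) and in NOMO1 from 15.5 and 22.6 to 2.79 and 5.67 (-2.09 ± 0.60, adjusted p = 0.00348). It was called at 2000 nM in both lines and, in NOMO1, at 80 nM, where the DAC libraries read 9.19 and 0.497 FPKM. In THP1, MT-ND2, MT-ATP8, MT-CO3, MT-ND4L and MT-CYB fell at 2000 nM DAC, 5 of 13, and MT-CO3 (-0.83 ± 0.25), MT-ND4L (-1.43 ± 0.52) and MT-CYB (-1.23 ± 0.49) at 10000 nM. In NOMO1 MT-CO2, MT-CO3, MT-ND4L and MT-ND6 fell at 10000 nM, and 4 and 3 of 13 at 2000 and 80 nM. At 10000 nM these were 1, 3 and 4 of 13 in MV411, THP1 and NOMO1, where 30.1%, 26.2% and 29% of all genes fell, and at 2000 nM 1, 5 and 4 (26.6%, 23.8% and 27.2%), so that MV411 lay well below that share and the 4 of NOMO1 near it. In the trend over DAC doses 9 of 13 fell in THP1, 7 of them by at least 1 log2 unit, 3 in NOMO1 and 1 in MV411 (31.8%, 32.4% and 32.5% of all genes). MT-CO3 had the lowest p of these in THP1 (-0.83 ± 0.21 over the dose range, adjusted p = 0.00109). With equal sums over nuclear coding genes the trend had 0 calls in THP1, 4 higher and 1 lower in NOMO1 and 1 of each in MV411. On day 6 in THP1 the direction was the opposite, and MT-ND1, MT-ND4, MT-ND5 and MT-CYB rose with DAC, 4 of 13 (20.4% of all genes rose). MT-ND1 read 59.2 and 53.2 FPKM against 19.9 and 17.9 in DMSO (1.55 ± 0.53, adjusted p = 0.0173). MT-ND2 fell with GSK032 and MT-ND4L with DAC on day 6 in NOMO1. Single libraries decided these counts: the 5 of THP1 at 2000 nM became 9 without the first DMSO library and 0 if the second DMSO or the first DAC library was left out, the 4 of NOMO1 at 2000 nM became 1 or 2, the 3 at 80 nM became 0 without the second DAC library, the 3 of THP1 at 10000 nM DAC became 11 when the first DMSO library was left out and 0 when the second DMSO or the first DAC library was, the 4 of THP1 on day 6 became 0 or 1, the 4 of NOMO1 at 10000 nM became 0 to 3, and the MV411 call of MT-ND6 was lost without the first DMSO or second DAC library. With equal sums over nuclear coding genes the THP1 count was 0 at 2000 and 10000 nM, the MV411 count 0 at both and the NOMO1 count 1 at both. MT-ND5 rose in MV411 with GSK032 against GSK477 at 10000 nM (1.61 ± 0.63, adjusted p = 0.0323), with no call against DMSO.

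GSK032 and DAC were set against each other at matched dose and day, which uses no DMSO library. At 400 nM on day 4 the nuclear subunits did not separate in MV411, where COX7B2 and COX8C were the 2 higher with GSK032 and 0 were lower (3.9% of all genes higher and 3.72% lower), or in THP1, where 0 were higher and COX7A1, COX7B2 and ATP5IF1 were lower (10.1% and 14.4%). The median difference was -0.04 in THP1, and UQCRQ differed by -0.04 (95% interval -0.36 to 0.28) in MV411 and -0.14 (-0.33 to 0.06) in THP1, intervals that leave room for small differences. In NOMO1 66 of 87 were higher with GSK032 and COX7A1, COX7B2 and COX8C were lower (23.2% and 22.4% of all genes; median 0.59). NDUFA9 stood 1.22 ± 0.09 log2 units higher (95% interval 1.04 to 1.4, adjusted p = 1.9e-12), at 106 and 105 FPKM against 46.3 and 43.8. On day 6, 64 of 89 were higher in THP1 and COX7A1 was lower (12% and 10.6%; median 0.37), 78 were higher and 4 lower in NOMO1 (26.2% and 23.8%; median 0.80) and COX7B2 and COX8C were higher in MV411 with none lower (5.62% and 3.29%). The 64 became 40 without the first GSK032 library. At 10000 nM, 40 were higher and 1 lower in MV411 (24.1% and 14.2%; median 0.39), 17 and 22 in THP1 (18.3% and 22.5%; median -0.05) and 47 and 4 in NOMO1 (26.2% and 22.4%; median 0.39). The 40 of MV411 became 12 without the second DAC library, 68 without the first and 24 without the first GSK032 library, and equal sums gave 84 higher and coding sums 22 higher and 13 lower. The result moved with the scale: with equal sums MV411 at 400 nM had 46 higher, where all genes shifted by 0.38, and with equal sums over coding genes it had 3 higher and 2 lower. NOMO1 at 400 nM had 56 higher under equal sums and 37 under coding sums, where 8.95% of all genes were higher and 40.0% lower, but at 10000 nM the coding sums gave 13 higher and 19 lower.

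The MT- mRNAs stood higher with GSK032 than with DAC at some doses in 2 lines. In NOMO1, 5 of 13 were higher at 80 nM, 3 at 400 nM, 4 at 2000 nM and 4 at 10000 nM (15.9%, 23.2%, 23.6% and 26.2% of all genes), and MT-CO2, MT-CO3 and MT-ND4L were among them at each dose. MT-CO3 read 987 and 1070 FPKM with GSK032 against 558 and 491 with DAC at 400 nM (0.98 ± 0.36, adjusted p = 0.0294), with no overlap. In THP1, 8 of 13 were higher at 2000 nM (13.7% of all genes) and none were called by limma at 80, 400 or 10000 nM (7, 4 and 1 at an unadjusted p below 0.05). MT-CYB there read 163 and 154 FPKM with GSK032 against 48.3 and 69.4 with DAC (1.45 ± 0.49, adjusted p = 0.0213). On day 6 in THP1, MT-ND1 (-1.56 ± 0.53) and MT-CYB (-1.34 ± 0.49) were lower with GSK032 (10.6% of all genes). None was called in MV411 at any dose or day by limma, and none there had an unadjusted p below 0.05. These counts rested on few libraries: the 8 of THP1 became 2 without the first GSK032 library, 0 when the second GSK032 or the first DAC library was left out and 9 without the second DAC library, and the 2 of day 6 became 0 whichever library was dropped. The NOMO1 counts became 0 to 4, 0 to 2, 1 to 4 and 2 to 4 at 80, 400, 2000 and 10000 nM. The 0 came without the second DAC library at 80 nM, and at 400 nM without either DAC library or the second GSK032 library. Equal sums gave 3, 1, 2 and 4 in NOMO1, 3 in THP1 at both 400 and 2000 nM, and 2 and 9 in MV411 at 2000 and 10000 nM. Coding sums gave 3, 0, 0 and 1 in NOMO1, 8 in THP1 at 2000 nM and 0 in MV411 at both doses.

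GSK477 at 10000 nM changed no subunit on day 2 or day 4 in any line by limma, with 0 called and 5, 3 and 1 nuclear members at an unadjusted p below 0.05 on day 4 in MV411, THP1 and NOMO1 (0.286%, 0.146% and 0.978% of all genes rose and 1.11%, 0.228% and 0.361% fell). Against GSK477 at the same dose and day, 79, 67 and 55 nuclear members were lower with GSK032, and 83, 70 and 79 with DAC. Of all genes 26.9%, 21.5% and 21.4% were lower with GSK032 than with GSK477, and 31.1%, 26.5% and 28.9% with DAC. UQCRQ read 334 and 369 FPKM with GSK477 in MV411, beside 131 and 125 with GSK032 and 119 and 74.2 with DAC at that dose, and COX7B2 0.0295 and 0 beside 19.9 and 19.2, and 1.43 and 1.48. GSK862 was given at 1000 nM, a dose at which GSK032 was not, so the values stand side by side with no test. On day 4 it lowered 13 nuclear members in MV411 (11.6% of all genes), 8 in THP1 (5.96%) and 3 in NOMO1 (7.37%) and raised 2 in each line (12.1%, 6.51% and 10.5%). SDHA fell in MV411 (-0.59) and NOMO1 (-0.31), NDUFA4L2 fell in MV411 (-0.93), COX8A in THP1 (-0.42) and NDUFS3 in NOMO1 (-0.43). COX7B2 and COX8C read 10.1 and 9.64, and 2.24 and 1.85 FPKM in MV411. In THP1 the values were 0.712 and 1.08, and 4.90 and 4.64, and in NOMO1 0.501 and 0.199, and 0.223 and 0.128. Both rose in MV411 and THP1, and neither passed in NOMO1, where NDUFA4 (0.67, adjusted p = 0.0169) and ATP5S (0.31, adjusted p = 0.0475) rose.

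Genes that build or feed the respiratory chain fell in the same comparisons, which share their DMSO libraries with those above. The mitochondrial ribosomal proteins, which make the MT- subunits, fell in 71 and 68 of 79 in MV411 with GSK032 and DAC at 400 nM on day 4, in 53 and 49 in THP1 and in 37 and 75 in NOMO1, with medians of -0.67 and -0.73, -0.31 and -0.30, and -0.30 and -0.95. MRPL11 fell in every line, most in NOMO1 with DAC (-1.74 ± 0.08). Of 18 citric acid cycle enzymes 13 and 13, 14 and 14, and 5 and 18 fell, among them IDH3B, a subunit of isocitrate dehydrogenase (-1.4 ± 0.07 in NOMO1 with DAC). Of 49 assembly factors 30 and 31, 17 and 21, and 14 and 39 fell. ECSIT, needed for complex I assembly, fell in all 3 lines, and COX20, a complex IV assembly factor, rose in MV411 (1.46 ± 0.15 and 1.75 ± 0.15). Of 9 genes for cytochrome c and for carriers and channels of the mitochondrial membranes 6 and 6, 7 and 8, and 4 and 9 fell. Cytochrome c itself, CYCS, fell from 184 and 164 FPKM to 112 and 111 with GSK032 in MV411 and did not pass with GSK032 in NOMO1 (adjusted p = 0.38). Of 23 genes that copy and transcribe mitochondrial DNA 14 and 11, 11 and 13, and 5 and 19 fell. TFAM, which packs and transcribes that DNA, read 47.2 and 49.9 FPKM in MV411 with DMSO, 30.4 and 33.6 with GSK032 and 32.9 and 29.2 with DAC. POLRMT, the mitochondrial RNA polymerase, passed only in NOMO1 with DAC (-0.60, adjusted p = 0.00328). LRPPRC, which stabilises MT- mRNAs, fell in all 3 lines with both compounds, by -1.51 ± 0.08 in NOMO1 with DAC, and 12 and 15, 12 and 10, and 11 and 22 of 23 genes of MT- RNA processing fell. Glycolysis genes fell as well, in 12 and 17 of 22, 11 and 13, and 3 and 13, while 1 and 1, 2 and 5, and 5 and 4 rose. SLC2A3, a glucose transporter on that list, fell in MV411 (-1.84 and -1.68) and rose in NOMO1 (0.93 and 1.53). Of the other coding genes at 10 FPKM or more, the shares that fell were 39.5 and 44.4% for MV411, 34.8 and 41.0% for THP1 and 17.0 and 52.2% for NOMO1, as given above. The assembly factors of THP1 (34.7% and 42.9%) lay near that share, as did the genes of mitochondrial RNA processing and stability in THP1 with DAC (43.5%) and of mitochondrial DNA copying and transcription in MV411 with DAC (47.8%) and in NOMO1 with GSK032 (21.7%). Glycolysis in NOMO1 (13.6% and 59.1%) was near it as well, and so were the nuclear regulators in NOMO1 and, with GSK032, in THP1. The lists count every tested member and not only those at 10 FPKM or more, so the sets are unlike. Of 10 nuclear regulators tested 5 and 6, 3 and 6, and 2 and 6 fell. Among them MYC, a general activator of these genes, read 184 and 186 FPKM in MV411 with DMSO, 95.3 and 90.8 with GSK032 and 78.9 and 68.4 with DAC, and in NOMO1 83.5 and 87.6, 50.3 and 47.9, and 21.0 and 23.6. NRF1 passed only with DAC in THP1 (-0.38) and NOMO1 (-0.43), PPARGC1B rose with GSK032 in MV411 (0.50) and fell with DAC in THP1 (-0.34) and NOMO1 (-0.76), and PPARGC1A was below the filter. Of nuclear copies of mitochondrial genes, 10, 7 and 4 of 388 were expressed enough to be tested, and 1 was called at 400 nM, MTND3P22 in MV411 with GSK032.

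Markers of other cell types moved beside the results with DAC in NOMO1 and THP1, and endothelial markers with both compounds in MV411. In NOMO1, T cell markers summed to 162 to 177 FPKM with DAC at 400 nM on day 4, with 3 of 5 at 1 FPKM or more, against 4.34 to 13.0 in DMSO with 1 of 5. Epithelial markers summed to 129 to 159 against 26.5 to 40.7 (3 of 4 in both), and fibroblast markers to 31.2 to 35.2 against 2.68 to 9.96 (3 and 1 of 5). Myeloid markers summed to 3270 to 3750 against 5780 to 7990, with 13 of 13 present in both. In THP1 with DAC, epithelial markers summed to 11.9 to 13.1 FPKM against 1.63 to 2.73 in DMSO (2 and 1 of 4), fibroblast markers to 6.43 to 8.5 against 0.85 to 1.76 (2 and 0 of 5) and T cell markers to 2.25 to 2.43 against 0.53 to 0.868 (1 and 0 of 5). With GSK032 the NOMO1 sums were 30.3 to 35.4 for T cells and 63.5 to 64.6 for epithelial markers, and in THP1 epithelial markers summed to 4.46 to 5.16. In MV411, myeloid markers summed to 3660 to 4000 with GSK032 against 1050 to 2420 in DMSO. Endothelial markers there summed to 76.4 to 83.0 with GSK032 and 52.8 to 60.8 with DAC, against 21.4 to 41.8 in DMSO (1 of 3 in each). The part of all these markers in the falls of the subunits was not tested.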

How the data were processed

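RNA-seq libraries of 3 acute myeloid leukemia lines were compared, 52 per line in 26 groups of 2. The authors deposited FPKM values for 59939 genes in 3 tables, 1 per line. Salmon 0.12.0, DESeq2 and hg38 are named in the submitters' processing notes, with no role given for each. 3 deposited tables of log2 fold changes by the authors, with no errors or p-values, were not used. FPKM carries no read counts, so depth and counting error are unknown. How the deposited values were scaled between libraries is not known. On them the median change of all genes was -0.0 in MV411 with 10000 nM DAC on day 4, and with equal sums it was -0.35. With equal sums, a shift in the share of short noncoding RNA moves all other values.

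Group and replicate were taken from the labels, and no 2 libraries held identical values. The names of 4 MV411 columns carry no replicate number of their own. Genes that reached 1 FPKM in 2 or more libraries of a line were kept, and log2(FPKM + 0.5) was fitted by group with limma 3.58.1 in R 4.3.3 (26 residual degrees of freedom per line, trended empirical Bayes). P-values were adjusted by the Benjamini-Hochberg method over all genes tested, and a call was an adjusted p below 0.05. Fold changes on this scale understate changes of low genes. The fit was tested on simulated data. Tables and figures were made in Python 3.11.15 with numpy 2.4.6, pandas 2.3.3 and matplotlib 3.10.9. GENCODE 29 gave biotypes and symbols for 94.3% of identifiers, and RefSeq gave promoters. Same-numbered libraries deviated together only weakly (median correlation 0.08, 0.08 and 0.09 in MV411, THP1 and NOMO1), so no replicate block was used. The MT- means of THP1 and MV411 on day 4 were exceptions. In THP1 the second library was the higher in DMSO (7.02 and 8.22) and in all treated groups but 2 doses of GSK032. Those were 3.2 nM (7.97 and 7.28) and 16 nM (7.55 and 7.26). In MV411 the first library was the higher at every dose of GSK032 (9.02 and 7.6 at 400 nM). It was also the higher at every DAC dose but 3.2 nM (7.67 and 7.79), and not in DMSO (7.89 and 8.01). The nuclear means of MV411 were higher in the first library in DMSO (6.86 and 6.66) and at every dose of both compounds but 16 nM. A shift shared by replicate number can thus remain in the spread of the MT- mRNAs and, in MV411, of the nuclear subunits.

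Named genes were the 13 MT- genes, nuclear members called the same way in all lines or most changed in a line at 400 nM on day 4, tissue paralogs, the most abundant member of each complex, the most changed member of other comparisons, and up to 3 called members of each further list with 6 regulators. NDUFC1, NDUFB5, CYCS, LRPPRC and the mitochondrial rRNAs were named after their values were seen, as were levels chosen to illustrate a call. Members and lists were chosen with earlier results of these data known. Alternatives were 3 scales, another pseudocount, no filter, a fold threshold, the replicate block and leaving out each library.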

Additional observations from a re-analysis of the deposited data

Results flagged for a closer look

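The effect of 400 nM differed between day 6 and day 1, tested in limma as the change against DMSO on day 6 minus that on day 1. With DAC the difference passed for 75 of 87 nuclear subunits of NOMO1 (21.2% and 22.6% of all genes, up and down), 69 of 89 of THP1 (13.4%, 14.8%) and 4 of 87 of MV411 (11.2%, 7.7%). With GSK032 it passed for 33 subunits of THP1 (6.37%, 9.57%), 12 of MV411 (13.2%, 10.2%) and 5 of NOMO1 (8.52%, 6.12%). With DAC most subunits of THP1 and NOMO1 thus differed between the days. The shares in NOMO1 with GSK032 and in MV411 with either compound were below those of all genes. Neither the lines nor the compounds were compared with each other in this difference.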

How the results depend on the processing

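The broad fall of nuclear subunits kept its direction under the pseudocount of 0.1, no filter, the replicate block and each left-out library, and depended on the scale of the libraries. Over all results that answer a comparison, 779 values under an alternative stayed close and 222 moved. For single named genes, called or not, 2587 values under an alternative stayed on their side of the threshold, 221 lost a call, 68 gained one and 18 turned in sign with a call on at least 1 side, and the cause was not tested except where fewer libraries or a stricter call set it. Counts below are of nuclear subunits unless MT- is written, vs DMSO on day 4 unless said.

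With equal sums over all genes, MV411 had 17 lower and 5 higher with 400 nM GSK032 (median -0.17), 46 higher in GSK032 against DAC at 400 nM, 2 MT- calls at 10000 nM DAC, 31 and 44 lower on day 6 with GSK032 and DAC, 3 MT- in the DAC trend and 8 lower with GSK862. THP1 had medians of -0.37 and -0.64, 2 MT- with 400 nM DAC, 17 higher and 3 MT- in the direct comparison, 9 MT- at 10000 nM DAC, 18 lower on day 6 with GSK032, 2 MT- on day 6 with DAC, 0 MT- in the direct comparison of day 6, 1 MT- in the GSK032 trend, 1 lower with GSK862 and 4 higher over DMSO days. NOMO1 had 0 lower and 1 higher with GSK032 (median 0.01), a DAC median of -0.54, 1 MT- in the direct comparison, 2 MT- at 10000 nM DAC, 0 lower and 0 MT- on day 6 with GSK032, 0 MT- with DAC, 1 MT- in the DAC trend and 0 lower with GSK862. Leaving mitochondrial genes out of the sums moved no count of members by more than 1 (47 and 18 higher in the direct comparisons of MV411 and THP1) and gave a median of 0.02 in NOMO1 with GSK032.

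With equal sums over nuclear coding genes, MV411 had 27 lower and 7 higher with GSK032 (median -0.11), 27 and 11 with DAC (-0.10), 2 lower in the direct comparison (6 on day 6), 0 MT- at 10000 nM DAC, 12 lower and 28 higher on day 6 with DAC, 1 and 2 MT- in the GSK032 and DAC trends, and 43 lower and 2 higher over DMSO days. THP1 had 17 and 9 (-0.03), 20 and 16 (-0.01), 6 lower and 1 higher in the direct comparison, 24 and 22 lower at 10000 nM with 0 MT- for DAC, 12 and 38 lower on day 6 with 8 MT- for DAC, 26 higher in the direct comparison of day 6, 31 and 35 lower in the trends with 1 and 0 MT-, 1 lower with GSK862 and 3 higher over DMSO days. NOMO1 had 10 lower with GSK032, 42 and 10 with DAC (-0.27, MT- median -0.03), 6 lower, 37 higher and 0 MT- in the direct comparison, 38 lower and 1 MT- at 10000 nM DAC, 21 and 49 lower on day 6 with 0 MT- for DAC, 10 lower, 40 higher and 6 MT- in its direct comparison, 1 MT- in the GSK032 trend, 50 lower and 5 MT- in the DAC trend and 9 lower with GSK862. Turned in sign here were ATP5IF1 (0.22) and SDHD (0.17) in MV411 with DAC, COX4I1 (0.03), NDUFB9 (0.20), NDUFS1 (0.07) and NDUFS3 (0.08) in THP1 with GSK032, COX4I1 (0.01), NDUFA9 (0.24), NDUFB9 (0.18), NDUFS1 (0.21), NDUFS3 (0.02), SDHB (0.04) and SDHD (0.03) in THP1 with DAC, and COX7A2L (0.23) in NOMO1 with DAC. NDUFS1 in MV411 with GSK032 was 0.07, and 0.01 with equal sums with or without mitochondrial genes.

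Requiring a log2 change of at least 1 left 3 and 2 lower in MV411 with 1 higher in the direct comparison, 0 and 1 in THP1 with 1 lower, and 0 and 14 in NOMO1 with 0 higher for GSK032, 5 higher in the direct comparison and 0 MT-. With no filter there were 4 higher with DAC, 1 lower in the direct comparison of day 6 and 8 lower with GSK862 in MV411. THP1 then had 1 higher in the direct comparison, 2 lower and 0 MT- in that of day 6, 5 MT- in the DAC trend, 3 lower with GSK862 and 5 higher over DMSO days, and NOMO1 3 lower and 0 higher with GSK032, 0 MT- in the direct comparison and 0 MT- on day 6 with either compound. The pseudocount of 0.1 left 0 higher in the direct comparisons of MV411 on day 4 and day 6.

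The replicate block was fitted for numbers that paired the libraries only weakly (28.6 to 36.6% of pairs correlated above 0.1). It gave 2 MT- in the DAC trend of MV411 and 1, 2 and 8 MT- in THP1 (400 nM DAC, direct comparison, 10000 nM DAC). THP1 also had 15 lower with GSK862 and 30 higher over DMSO days. NOMO1 had 1 MT- with 400 nM DAC, and on day 6 20 lower with GSK032 and 2 MT- with DAC.

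Leaving out 1 library gave 17 to 46 lower in MV411 with GSK032 (MT- median -0.18 to 1.15, gap to nuclear -1.56 to -0.34), 22 to 47 with DAC (MT- median -0.88 to 0.02), 1 to 3 higher in the direct comparison, 0 to 1 MT- at 10000 nM DAC and 10 to 18 lower on day 6 with DAC. In THP1 the nuclear median was -0.35 to -0.30, the MT- median -0.43 to 0.91 and the gap -1.26 to 0.14 with GSK032, and with DAC 30 to 53 were lower, 0 to 2 MT- called and the median -0.37 to -0.21. MT- calls were 0 to 1 in the direct comparison, 0 to 1 and 0 to 11 at 10000 nM GSK032 and DAC, 0 to 1 on day 6 with DAC and 0 to 0 in its direct comparison, with 40 to 55 higher. In NOMO1 there were 2 to 5 lower and 0 to 1 higher with GSK032 (MT- median -0.22 to 0.46, gap -0.54 to 0.17), and with DAC 0 to 1 MT- (nuclear median -0.70 to -0.60, MT- median -0.55 to -0.23, gap -0.37 to -0.13). MT- calls were 0 to 2 in the direct comparison, 0 to 3 at 10000 nM DAC, 0 to 8 and 0 to 4 on day 6 with GSK032 (6 to 14 lower) and DAC, and 0 to 1 in its direct comparison. COX6B2 in MV411 with GSK032 was -0.06 without its first library and 1.45 without its second. No read count stands behind the FPKM values, so what depth allows is unknown, also for the low values of MT-ND6 and the paralogs.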

Other observations

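The 2 ribosomal RNAs of the mitochondrial genome, which are no subunits, did not follow the MT- mRNAs. With DAC at 400 nM on day 4 in NOMO1, MT-RNR2 read 281 and 313 FPKM against 118 and 87.3 in DMSO (1.54 ± 0.55, limma adjusted p = 0.0197) and MT-RNR1 72.4 and 77.5 against 34.1 and 25.5 (1.33 ± 0.53, adjusted p = 0.0361), while no MT- mRNA was called there. At 10000 nM DAC, MT-RNR2 read 6950 and 4090 FPKM in MV411 against 259 and 285, and 752 and 626 in NOMO1 against 118 and 87.3, and in THP1 it did not pass (0.57, adjusted p = 0.508). How poly(A) selection or rRNA removal was done was not given in the sources used here, and its part was not tested.

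TOP1MT, the mitochondrial topoisomerase, moved in opposite directions: in NOMO1 with DAC it read 44.0 and 47.8 FPKM against 191 and 211 in DMSO (-2.12 ± 0.10, adjusted p = 6.01e-17), and in MV411 with DAC it rose by 0.51 (adjusted p = 0.000737).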
